A study of Mus musculus with 8 samples.

Results

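The genes described here are 40 cell cycle genes, listed by name for their role, out of 39017 genes in the count table. They were split into 24 genes that act in G2 and mitosis (the G2/M set) and 16 that act at the G1/S boundary and in DNA replication (the G1/S set). All 40 were found, and all 40 passed the filter on low counts that kept 18952 genes for testing. The cells were mouse embryonic fibroblasts, primary connective tissue cells taken from E13.5 embryos. Knockout cells had lost Mettl3, the methyltransferase that places N6-methyladenosine (m6A) on mRNA, through a Cre recombinase that 4-hydroxytamoxifen (4-OHT) switches on, given at 500 nM over 48 h. Loss was checked after 7 days and the cells were collected the following day. Whether control cells also received 4-OHT, and which promoter drives the Cre, is not given in the sources used here.

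Control and knockout cells were each measured in 2 ways, which makes 4 groups of 2 libraries, described as biological replicates. Total poly(A) RNA came from unstressed cells. The other RNA was a stress granule-enriched fraction of cells given 500 µM sodium arsenite for 30 min. Arsenite is an oxidative stressor that halts translation, and stress granules are cytoplasmic clusters of the stalled mRNAs and their binding proteins. Fraction and stress changed together, so a granule to total difference cannot be assigned to either. The labels do not say that the replicates came from separate embryos, so p-values measure only the spread between these libraries, which may be technical.

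Proliferating cells transcribe these genes in successive waves. E2F factors switch on the G1/S genes, which license replication origins, form the Mcm helicase and supply deoxynucleotides. Later the MuvB complex with B-Myb and Foxm1 drives the G2/M genes, which encode mitotic cyclins, kinases, kinetochore proteins and spindle motors. The promoters of the G2/M wave are known for CCAAT boxes, bound by NF-Y, and for the cell cycle genes homology region (CHR), bound by MuvB.

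RefSeq promoter windows (GRCm38.p6 build, 250 bases before to 50 bases after the annotated start) were present for 32 of the 40 genes, as 34 windows. The 160 bases before the start are printed for 7 members, 4 of the G2/M set and then 3 of the G1/S set. They were chosen after the matches were seen, as examples of the motifs, and do not show every word of their windows. Each is written 5′ to 3′ on the strand of the gene and ends at the base before the start. Capitals mark the bases of E2F words (TTTCCCGC, TTTGGCGC, TTTCGCGC or TTTGCGCG), the CCAAT box (CCAAT) and CHR words (TTTGAA or TTTAAA), each searched on both strands. Overlapping matches run together. The stretches lie at chr7:122159275-122159434 (Plk1, plus strand), chr4:118437344-118437503 (Cdc20, minus strand), chr10:69352913-69353072 (Cdk1, minus strand), chr11:99024190-99024349 (Top2a, minus strand), chr12:24708094-24708253 (Rrm2, plus strand), chr8:75109349-75109508 (Mcm5, plus strand) and chr1:128359706-128359865 (Mcm6, minus strand).
Plk1: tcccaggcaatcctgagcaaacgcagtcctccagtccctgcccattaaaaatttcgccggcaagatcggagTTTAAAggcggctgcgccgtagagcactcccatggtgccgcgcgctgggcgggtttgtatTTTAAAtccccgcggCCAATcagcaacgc
Cdc20: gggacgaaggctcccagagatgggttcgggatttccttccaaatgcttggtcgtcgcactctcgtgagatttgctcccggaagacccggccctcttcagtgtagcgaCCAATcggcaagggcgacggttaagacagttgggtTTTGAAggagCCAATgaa
Cdk1: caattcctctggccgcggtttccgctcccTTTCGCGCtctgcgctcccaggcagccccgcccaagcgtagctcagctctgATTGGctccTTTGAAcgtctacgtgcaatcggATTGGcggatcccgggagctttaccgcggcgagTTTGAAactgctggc
Top2a: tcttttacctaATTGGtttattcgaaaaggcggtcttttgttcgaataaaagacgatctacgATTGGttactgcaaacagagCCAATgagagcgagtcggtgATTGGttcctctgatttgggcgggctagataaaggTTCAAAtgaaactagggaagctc
Rrm2: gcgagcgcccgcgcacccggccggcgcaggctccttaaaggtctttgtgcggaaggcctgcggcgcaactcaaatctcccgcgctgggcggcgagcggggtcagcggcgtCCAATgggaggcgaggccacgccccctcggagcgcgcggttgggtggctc
Mcm5: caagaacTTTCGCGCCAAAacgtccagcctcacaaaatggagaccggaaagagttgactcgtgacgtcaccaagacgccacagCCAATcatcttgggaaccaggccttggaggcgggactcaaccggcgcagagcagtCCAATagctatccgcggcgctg
Mcm6: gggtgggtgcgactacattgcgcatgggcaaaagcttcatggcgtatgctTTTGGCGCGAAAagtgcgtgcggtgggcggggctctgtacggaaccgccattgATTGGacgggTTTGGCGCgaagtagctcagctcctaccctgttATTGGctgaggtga

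In the windows of the G2/M set, 18 of 20 (90.0%) held a CCAAT box, 18 of 20 (90.0%) a CHR word and 17 of 20 (85%) both. In the G1/S set the shares were 64.3%, 28.6% and 21.4% of 14 windows. Across all 32851 promoter windows the shares were 37.4%, 27.6% and 10.7%. E2F words were found in 6 of 14 G1/S windows (42.9%), in 1 of 20 G2/M windows (5.0%), that of Cdk1, and in 2.15% of all windows. These are matches of letters, and no binding was measured. In Mcm6 an E2F word on each strand overlapped to form the run TTTGGCGCGAAA. Rrm2, although its product serves replication, held a CCAAT box and no E2F word from this list in the printed stretch. Words within 50 bases after the start, such as the CHR words of Aurka, fall outside the printed part. Before the start alone, CHR words were found in 65.0% of G2/M windows, 21.4% of G1/S windows and 25.2% of all windows.

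Libraries held 67257220 to 123508539 counts, and 3 counts in the smallest amount to 0.0446 CPM, a unit that divides each count by its library's total. The 40 genes took 0.441% to 0.762% of a library's counts. Mettl3 measured 25.4 and 24.9 CPM in control total, 6.0 and 7.35 CPM in knockout total, 15.7 and 15.4 CPM in control granule, and 5.56 and 6.38 CPM in knockout granule libraries, in the direction of the labels in every library. Summed over 10 fibroblast markers the level was 6050 to 8980 CPM, mostly Col1a1, Col1a2, Vim and Fn1. Pdgfra (1.39 to 3.47 CPM), Lum (2.23 to 5.22 CPM) and Thy1 (3.3 to 12.9 CPM) of that list were low. The summed level of 5 epithelial markers was 330 to 425 CPM in control total, 141 to 159 CPM in knockout total, 726 to 854 CPM in control granule and 580 to 767 CPM in knockout granule libraries, mostly Krt18 and Krt14, with Epcam and Cdh1 at 2.16 CPM or less. Endothelial (4 markers, 6.24 to 20.1 CPM), blood (5, 33.7 to 66.3), neural (4, 4.13 to 39.5) and muscle (4, 0.308 to 1.18) sums were lower. Their part in the results was not tested. Exons of 7 members share more than 10% of their bases with another gene (67.32% in Gins2), and counts of these members are uncertain.

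Replicates of the 40 genes differed by a median absolute log2 ratio of 0.323 in the control total pair, 0.801 in the knockout total pair, and 0.0699 and 0.151 in the control and knockout granule pairs. In the knockout total pair 16 members differed more than 2-fold, against 1 (Kif11), 0 and 0 in the control total, control granule and knockout granule pairs. The difference within that pair ran against GC content across the 40 genes (Spearman rho -0.776, a description over genes). The control total pair had a relation of similar size in the opposite sense (rho 0.793). Mitochondrial transcripts took 7.6% of the counts of knockout total replicate 1 and 6.16% and 8.81% of those of the knockout granule libraries, but 0.807% of knockout total replicate 2 and 0.59% to 0.881% of the control libraries. The 2 knockout total libraries thus differ, and fold changes of some members are also given without 1 of them. That leaves the group with 1 library, so those values are given without a p-value. In bulk RNA, fewer cycling cells and less of an mRNA per cell cannot be told apart.

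In control total RNA, compared between genes as CPM per kilobase of all annotated exons of the gene merged, Mcm7 (121 ± 22.8, SD, n = 2), Cdc20 (104 ± 27.8), Cdt1 (103 ± 26.9) and Mcm5 (94.7 ± 27.8) had the highest levels, and their spreads overlapped. Cenpf (0.662 ± 0.105) and Ccne2 (0.903 ± 0.259) had the lowest, followed by Nusap1 (2.23 ± 0.596), Cenpe (2.34 ± 0.437) and Bub1 (2.9 ± 1.01). The Mcm helicase subunits and Pcna lay between 45.8 and 121, while the kinetochore and spindle members lay at 28.9 or less. Divided instead by the longest coding transcript, the highest levels were those of Mcm2 (184 ± 28.0) and Mcm7 (181 ± 34.1), and Cdc20 was at 108 ± 28.9. The kinetochore gene Cenpa (87.0 ± 23.6) then had a higher mean than Mcm4 (64.9 ± 9.59) and Mcm6 (49.0 ± 3.82). The separation from the Mcm genes thus depended on the length used. The median log2 CPM of the G1/S set was above that of the G2/M set in every library, as the plot of the sets shows.

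**Figure D1:**
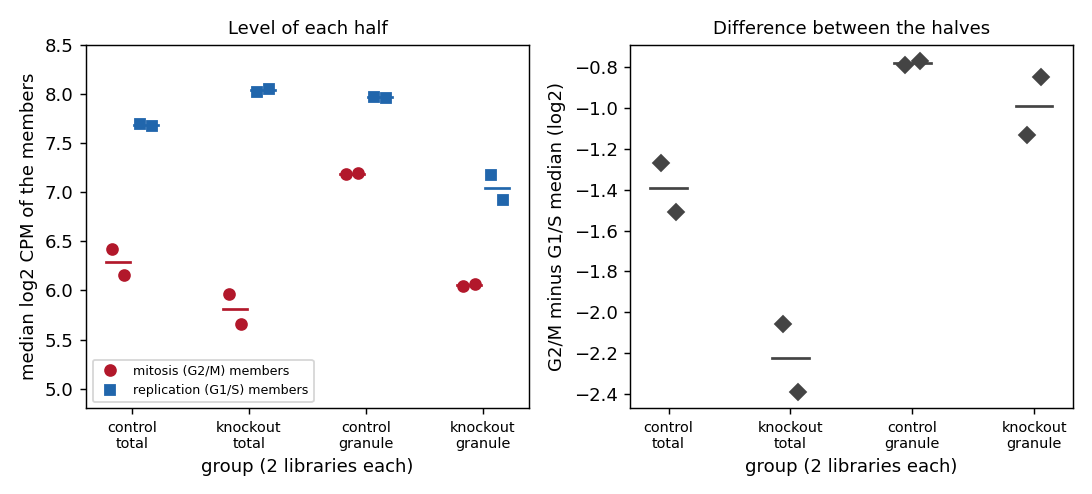
Left, median log2 CPM over the 24 G2/M and the 16 G1/S members in each library (points) by group; right, the G2/M median minus the G1/S median in the same libraries. The difference is lowest in the 2 knockout total libraries (-2.06 and -2.39) and highest in the 2 control granule libraries (-0.79 and -0.77).

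The median log2 CPM of the G2/M set was 6.42 and 6.16 in control total libraries, 5.96 and 5.66 in knockout total, 7.18 and 7.19 in control granule, and 6.04 and 6.07 in knockout granule. The G1/S set gave 7.69 and 7.67, 8.02 and 8.05, 7.97 and 7.96, and 7.17 and 6.92 in the same order. Both sets were thus highest or near highest in control granule RNA, and the G1/S set was lowest in knockout granule RNA, where its 2 libraries did not overlap any other group. As summed CPM, the G2/M set was 2046 and 1837 in control total and 4258 and 4164 in control granule libraries, whereas the G1/S set was 3932 and 3264 against 3676 and 3696. In knockout cells the G2/M sum was 1950 and 1442 in total and 2152 and 2340 in granule libraries, and the G1/S sum was 4057 and 4052 against 2362 and 2033. No test was run on these scores.

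**Figure D2:**
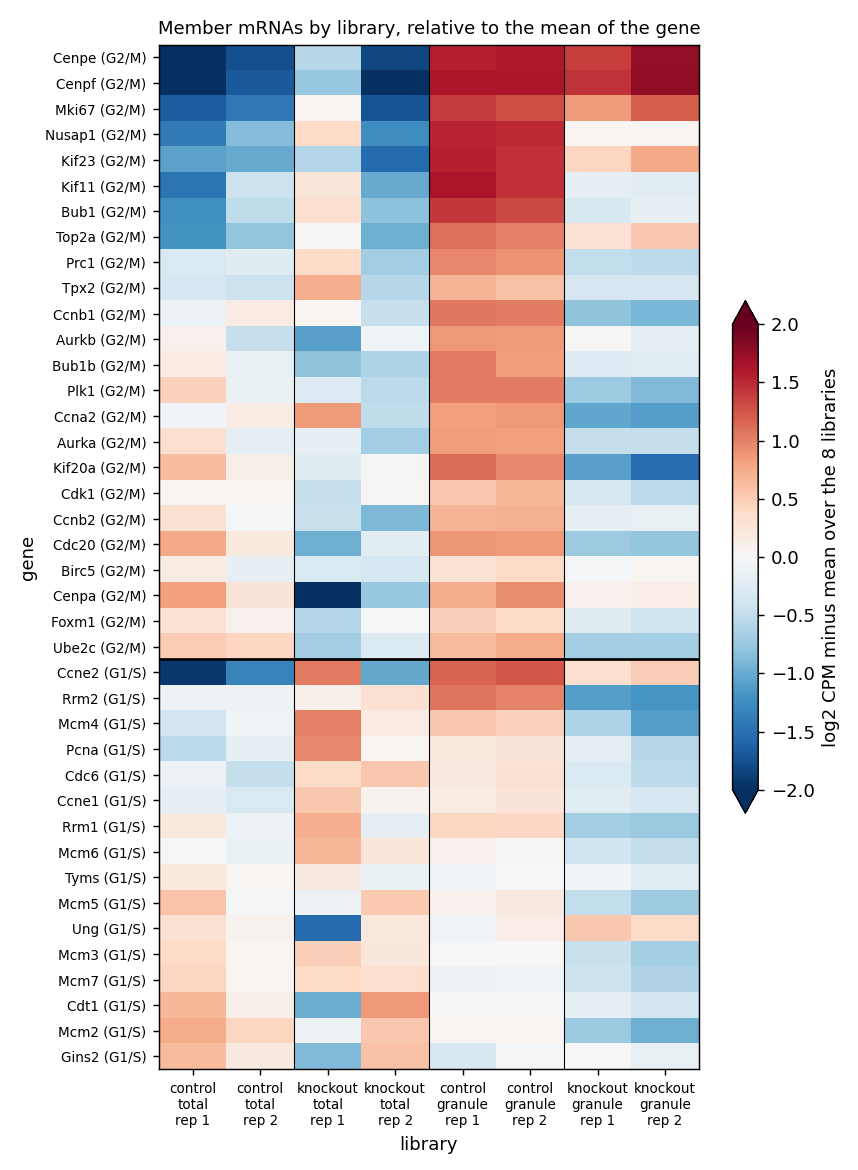
Heat map of the 40 members (rows, by set) in the 8 libraries (columns), coloured by log2 CPM minus the mean of the gene over the libraries, with colours limited at 2 in either direction. The 2 control granule columns are high for most G2/M rows, and knockout total replicate 1 differs from replicate 2 in many rows.

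The granule fraction of arsenite-treated control cells was set against unstressed control total RNA to ask which of these mRNAs are over-represented there. All 24 G2/M members had values above 0, with a median log2 fold change of 0.97, and 8 of them rose. The G1/S set was centred on -0.02, with 8 members above and 8 below 0, and 2 of 16 rose (Ccne2 and Rrm2). No member fell. In all, 10 of 40 rose, where 5.89% of all tested genes rose, 4.17% fell and 10.1% changed. The median of all genes was -0.06. Libraries did not overlap, with granule higher, for 31 members (35.2% of all genes) and, with granule lower, for 6 (37.3% of all genes), which were Cdt1, Mcm2, Mcm3, Mcm7, Gins2 and Tyms.

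Kinetochore genes had the widest range. Cenpe, the kinesin that carries chromosomes along microtubules, measured 17.5 and 22.9 CPM in total and 228 and 236 CPM in granule libraries of control cells, a log2 fold change of 3.52 (SE 0.45, edgeR adjusted p 0.0081). Cenpf, a large kinetochore protein, went from 9.08 and 11.4 to 112 and 111 CPM (3.45, SE 0.44, adjusted p 0.0081). Bub1, a spindle checkpoint kinase, went from 9.53 and 15.7 to 59.5 and 56.1 CPM (2.19, SE 0.43, adjusted p 0.024). In these 3 genes every granule library lay far above both total libraries. With the GC trend of each library removed they were smaller and stayed called, at 2.76, 2.73 and 1.23 for Cenpe, Cenpf and Bub1 (adjusted p 0.00055, 0.00055 and 0.0029). Bub1b, the BubR1 checkpoint protein, at 0.93 (SE 0.25, adjusted p 0.053), and Cenpa, the centromeric histone H3 variant, at 0.27 (SE 0.44, adjusted p 0.72), did not pass the test.

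Among spindle genes, the midzone motor Kif23 went from 39.3 and 41.3 to 244 and 229 CPM (2.55, SE 0.36, adjusted p 0.01). Kif11, the motor that separates spindle poles, went from 16.5 and 33.6 to 141 and 125 CPM (2.41, SE 0.49, adjusted p 0.025). Nusap1, a microtubule bundling protein, went from 7.33 and 10.7 to 56.2 and 55.0 CPM (2.62, SE 0.51, adjusted p 0.024). These 3 rose, and the other 3 spindle members, Prc1 (1.2, adjusted p 0.066), Tpx2 (1.02, adjusted p 0.13) and Kif20a (0.65, adjusted p 0.17), were higher in both granule libraries without passing. Mki67, the Ki-67 protein that coats mitotic chromosomes, went from 40.2 and 46.9 to 335 and 311 CPM (2.89, SE 0.53, adjusted p 0.02). Top2a, the topoisomerase that untangles sister DNA, went from 103 and 137 to 509 and 475 CPM (2.03, SE 0.37, adjusted p 0.019). With the GC trend removed, Kif11 was at 1.61, Nusap1 at 1.74 and Top2a at 1.33, all still called.

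The 8 members of the cyclin and kinase group (Ccna2, Ccnb1, Ccnb2, Cdk1, Plk1, Aurka, Aurkb, Birc5) were all higher in both granule libraries, by 0.34 to 1.01, and none passed the test. Ccnb1, which activates Cdk1 for mitotic entry, was closest, at 59.0 and 71.6 CPM in total and 133 and 130 CPM in granule libraries (1.01, SE 0.27, adjusted p 0.052). Cdk1 measured 178 and 179 against 253 and 275 CPM (0.56, SE 0.26, adjusted p 0.19), and Plk1, a kinase of mitotic entry and exit, 99.6 and 66.0 against 148 and 149 CPM (0.84, SE 0.28, adjusted p 0.091). The anaphase genes Cdc20 (0.36, adjusted p 0.48) and Ube2c (0.21, adjusted p 0.6), an activator and a ubiquitin-conjugating enzyme of the anaphase-promoting complex, and the transcription factor Foxm1 (0.23, adjusted p 0.61) did not pass.

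In the G1/S set, Ccne2, a cyclin E, had the largest value, from 2.52 and 3.8 CPM in total to 21.5 and 22.7 CPM in granule libraries (2.8, SE 0.61, adjusted p 0.032), with 17.42% of its exon bases shared with another gene. Ccne1, the other cyclin E, measured 33.4 and 30.4 against 41.6 and 44.7 CPM (0.44, adjusted p 0.31). Rrm2, the small subunit of ribonucleotide reductase, went from 205 and 205 to 460 and 439 CPM (1.13, SE 0.23, adjusted p 0.025), while Rrm1, its large subunit, was at 0.37 (adjusted p 0.48). The 2 subunits thus gave different values in the same libraries, and their difference was not tested. With the GC trend removed Ccne2 was at 1.4 (adjusted p 0.007), and Rrm2, at 0.72 (adjusted p 0.078), was no longer called. The 7 genes of the replicative helicase group (Mcm2 to Mcm7 and Gins2) lay between -0.6 and 0.72, none called. Mcm2 measured 687 and 554 CPM in total and 430 and 429 CPM in granule libraries (-0.53, SE 0.29, adjusted p 0.26), Mcm5 457 and 300 against 327 and 350 CPM (-0.16, adjusted p 0.77), and Pcna, the sliding clamp, 178 and 228 against 301 and 310 CPM (0.59, adjusted p 0.29). Cdt1, an origin licensing factor, was at -0.45 (adjusted p 0.59) and Ung, a uracil-DNA glycosylase, at -0.16 (adjusted p 0.86).

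The G2/M median exceeded the G1/S median by 0.99 in this contrast, and the 4 pairings of single granule and total libraries gave 0.82 to 0.98. Leaving out a library leaves its group with 1 library, and calls of members and of all genes rose and fell together in those fits. The set difference stayed between 0.89 and 1.04.

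In knockout cells the same comparison of fractions gave another picture. The G2/M set was centred on -0.01, with 12 members above and 12 below 0, and 3 rose (Cenpe, Cenpf and Kif23) and 1 fell (Kif20a). The G1/S set was centred on -0.87, with 14 of 16 members below 0, and 6 fell (Mcm2, Mcm3, Mcm4, Mcm6, Mcm7 and Rrm2). The 10 called members compare with 17.6% of all genes called, 9.17% higher and 8.47% lower, and an all-gene median of 0.04. Libraries did not overlap for 10 members with granule higher (31.5% of all genes) and 15 with granule lower (26.5% of all genes).

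Cenpe measured 52.4 and 21.9 CPM in knockout total and 203 and 263 CPM in knockout granule libraries (2.65, SE 0.43, adjusted p 0.008). Cenpf measured 21.4 and 8.99 against 99.2 and 124 CPM (2.88, SE 0.43, adjusted p 0.0061), and Kif23 55.4 and 28.4 against 112 and 140 CPM (1.59, SE 0.35, adjusted p 0.021). Both granule libraries were higher than both total libraries for these 3, and knockout total replicate 1 was the higher of its pair in each. Mki67, at 131 and 38.4 against 229 and 293 CPM (1.62, SE 0.51, adjusted p 0.062), and Top2a, at 240 and 120 against 290 and 342 CPM (0.81, SE 0.36, adjusted p 0.15), were higher in both granule libraries without passing. Without knockout total replicate 1, Mki67 was at 2.76, Top2a at 1.39, Cenpe at 3.4, Cenpf at 3.63 and Kif23 at 2.14. Without replicate 2 they were at 0.86, 0.27, 2.03, 2.25 and 1.06. Kif20a, a kinesin of the central spindle, fell from 51.6 and 61.7 to 28.8 and 21.3 CPM (-1.18, SE 0.29, adjusted p 0.031), with 29.3% of its exon bases shared with Cdc23.

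Of the Mcm2-7 helicase, the ring that unwinds DNA at the fork, 5 of 6 subunits fell. Mcm4 measured 548 and 305 CPM in knockout total and 177 and 126 CPM in knockout granule libraries (-1.49, SE 0.34, adjusted p 0.025), and Mcm2 381 and 600 against 247 and 209 CPM (-1.11, SE 0.3, adjusted p 0.039). Mcm3 (-0.92, adjusted p 0.044), Mcm6 (-0.9, adjusted p 0.044) and Mcm7 (-0.88, adjusted p 0.046) followed, and Mcm5, at 285 and 443 against 220 and 189 CPM (-0.83, SE 0.32, adjusted p 0.11), did not pass. For all 6 subunits both granule libraries lay below both total libraries. Without knockout total replicate 1, Mcm2, Mcm3, Mcm4, Mcm6 and Mcm7 were at -1.4, -0.79, -1.02, -0.68 and -0.86. Without replicate 2 they were at -0.87, -1.17, -1.98, -1.23 and -1.04. Rrm2 fell from 236 and 273 to 103 and 97.2 CPM (-1.35, SE 0.23, adjusted p 0.0096), whereas Pcna (-0.94, adjusted p 0.097) and Cdc6, an origin licensing ATPase (-0.86, adjusted p 0.056), did not pass.

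The G2/M median exceeded the G1/S median by 0.86 here, with 0.92 to 1.13 in the 4 pairings. The set difference was 1.02 without knockout total replicate 1 and 0.93 without replicate 2. It was 0.95 and 0.78 without knockout granule replicate 1 and 2. With a library left out, calls of members and of all genes rose and fell together. When the 4 knockout libraries were fitted alone, no member was called, beside 0.0% of all genes.

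**Figure D3:**
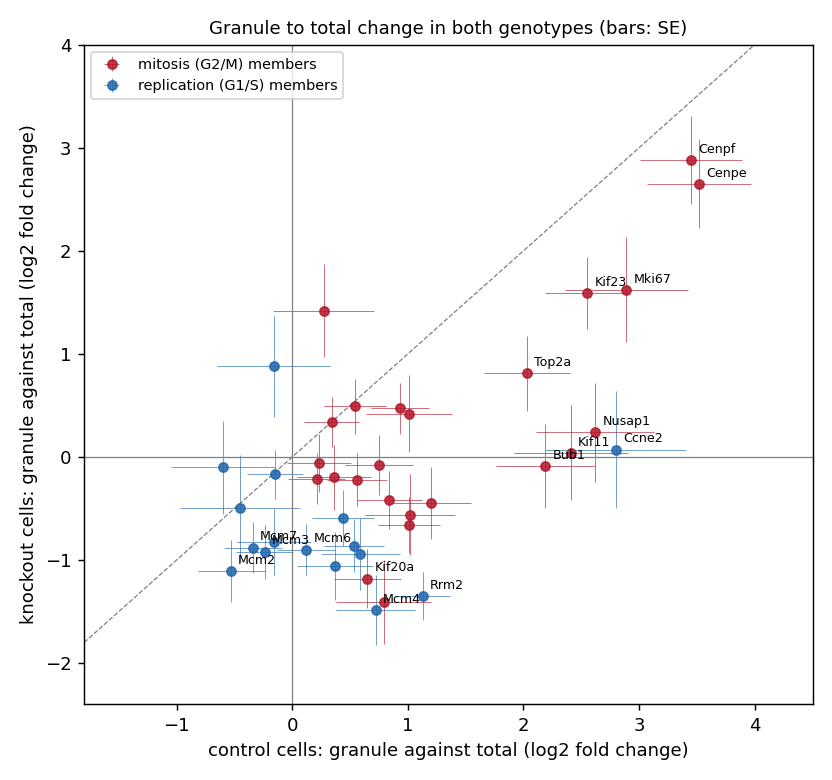
Granule against total log2 fold change of each member in control cells (horizontal) and in knockout cells (vertical), by set, with bars for the SE and named members labelled. Most points lie below the line of equality, with Cenpe, Cenpf and Kif23 high on both axes and Rrm2 positive in control and negative in knockout cells.

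Knockout and control cells were next compared within each fraction. If control cells did not receive 4-OHT, its effect cannot be told apart from that of Mettl3 loss. In the granule fraction 37 of 40 members had values below 0, 12 fell and none rose, against 3.66% of all genes that fell, 5.79% that rose and 9.45% called in all. The G2/M set was centred on -1.1 and the G1/S set on -0.58, while the median of all genes was 0.08. Of the 12 called, 10 were G2/M genes (Ccna2, Ccnb1, Cdk1, Plk1, Aurka, Cdc20, Ube2c, Bub1b, Kif20a and Prc1) and 2 were G1/S genes (Mcm4 and Rrm2). Both knockout granule libraries lay below both control granule libraries for 36 members (36.6% of all genes) and above them for 1, Ung (40.4% of all genes). Only Cenpe, Cenpf and Gins2 overlapped.

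Of the 12 calls, 5 were in the group of 8 mitotic cyclins, kinases and their partners. Ccna2, cyclin A2, measured 143 and 147 CPM in control and 39.3 and 37.4 CPM in knockout granule libraries (-1.92, SE 0.42, adjusted p 0.033). Ccnb1 measured 133 and 130 against 36.7 and 33.9 CPM (-1.9, SE 0.28, adjusted p 0.01), and Plk1 148 and 149 against 44.0 and 39.2 CPM (-1.83, SE 0.29, adjusted p 0.012). The knockout level of these 3 was 3.77-, 3.72- and 3.57-fold lower, and the libraries of the 2 groups lay far apart. Aurka, the centrosomal Aurora kinase, measured 147 and 145 against 58.8 and 59.0 CPM (-1.31, SE 0.29, adjusted p 0.034), and Cdk1 253 and 275 against 140 and 121 CPM (-1.01, SE 0.26, adjusted p 0.049). Ccnb2 (-0.86, adjusted p 0.081), Aurkb (-0.93, adjusted p 0.15) and Birc5, survivin (-0.32, adjusted p 0.41), did not pass.

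Of the anaphase genes, Cdc20 measured 252 and 245 CPM in control and 82.9 and 80.2 CPM in knockout granule libraries (-1.61, SE 0.33, adjusted p 0.027), and Ube2c 159 and 172 against 64.2 and 64.5 CPM (-1.37, SE 0.25, adjusted p 0.02). Kif20a had the lowest value of all members, from 133 and 119 to 28.8 and 21.3 CPM (-2.33, SE 0.3, adjusted p 0.0075). Prc1, a crosslinker of midzone microtubules, measured 164 and 157 against 59.9 and 58.5 CPM (-1.44, SE 0.35, adjusted p 0.045), and Bub1b 144 and 125 against 58.5 and 59.8 CPM (-1.19, SE 0.25, adjusted p 0.029). Exon bases of Ccna2, Ube2c, Kif20a and Prc1 overlap those of other genes by 11.08% to 29.3%, and their counts are uncertain to that extent. The 3 genes with the largest granule to total values in control cells behaved otherwise: Cenpe was at 0.01 (SE 0.4, adjusted p 0.99), Cenpf was 112 and 111 against 99.2 and 124 CPM (adjusted p 1.0) and Mki67 was at -0.31 (SE 0.5, adjusted p 0.72), with Top2a at -0.64 (SE 0.35, adjusted p 0.28).

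In the G1/S set, Rrm2 measured 460 and 439 CPM in control and 103 and 97.2 CPM in knockout granule libraries (-2.17, SE 0.24, adjusted p 0.005), the smallest adjusted p of the members in this contrast. Mcm4 measured 394 and 375 against 177 and 126 CPM (-1.34, SE 0.34, adjusted p 0.049). These 2 apart, Rrm1 (-1.14, adjusted p 0.069), Mcm2 (430 and 429 against 247 and 209 CPM, -0.91, adjusted p 0.091) and Mcm5 (-0.73, adjusted p 0.18) were lower without a call. Pcna (-0.6, adjusted p 0.3), Ccne1 (-0.47, adjusted p 0.29), Ccne2 (-0.79, adjusted p 0.4), Cdt1 (-0.24, adjusted p 0.8) and Tyms, thymidylate synthase (-0.12, adjusted p 0.79), did not pass, and Ung was at 0.43 (adjusted p 0.61). Foxm1, the regulator of the G2/M wave, was at 145 and 135 against 88.1 and 79.4 CPM (-0.74, SE 0.28, adjusted p 0.13).

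The G2/M median was 0.52 lower than the G1/S median (difference -0.52, with -0.75 to -0.41 in the 4 pairings). With 1 library left out, calls of members and of all genes rose and fell together, and the set difference ran from -0.7 to -0.45. The replicate block left 4 members called, beside 3.54% of all genes.

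**Figure D4:**
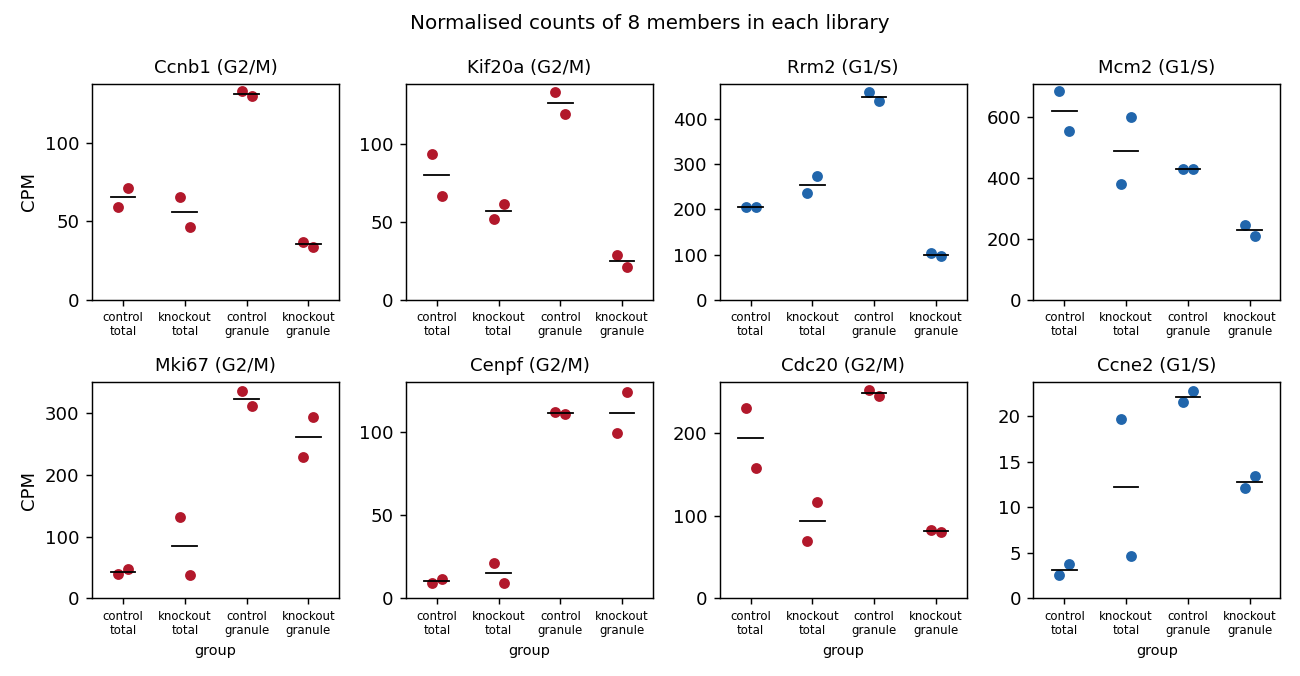
CPM of 8 members (Ccnb1, Kif20a, Rrm2, Mcm2, Mki67, Cenpf, Cdc20 and Ccne2) in each library (points) by group, with axes starting at 0. Ccnb1, Kif20a and Rrm2 are highest in control granule and lowest in knockout granule libraries, whereas Mki67 and Cenpf are high in both granule groups.

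In unstressed total RNA no member was called with edgeR, where 0.412% of all genes were called, 0.274% higher and 0.137% lower. Unadjusted p was under 0.05 for 9 members, and the share of all genes under that limit was not counted. The DESeq2 Wald test called 5, of which 3 G2/M genes were lower and 2 G1/S genes higher, a share close to the 13.2% of all genes that it called. The sets lay on either side of 0: the G2/M median was -0.23, with 11 members above and 13 below 0, and the G1/S median was 0.21, with 10 above and 6 below. The all-gene median was 0.02. Libraries did not overlap for 10 G2/M members, all lower in the knockout (24.7% of all genes), and for 7 G1/S members, all higher (24.4% of all genes). The 10 were Foxm1, Ccnb2, Cdk1, Plk1, Birc5, Cdc20, Ube2c, Bub1b, Cenpa and Kif20a, and the 7 were Ccne1, Ccne2, Cdc6, Mcm4, Mcm6, Pcna and Rrm2.

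Cenpa measured 152 and 103 CPM in control and 18.8 and 50.8 CPM in knockout total libraries (-1.88, SE 0.46, adjusted p 0.12). Cdc20 measured 230 and 157 against 69.4 and 117 CPM (-1.05, SE 0.32, adjusted p 0.15), and Ube2c 147 and 139 against 63.3 and 85.5 CPM (-0.94, SE 0.25, adjusted p 0.13). In these genes both knockout libraries were low but differed from each other by more than the control pair in ratio. Without knockout total replicate 1, Cenpa was at -1.33, Cdc20 at -0.72 and Ube2c at -0.74. Without replicate 2 they were at -2.66, -1.37 and -1.07. Plk1 (-0.58, adjusted p 0.24), Foxm1 (-0.45, adjusted p 0.32), Cdk1 (-0.23, adjusted p 0.58) and Ccnb1 (-0.22, adjusted p 0.61) were nearer to 0. With the GC trend removed Ccnb1 was at -0.78 (adjusted p 0.046) and Ccnb2 at -0.91 (adjusted p 0.049), the 2 members called then, and Plk1 was at 0.04 (adjusted p 0.94). In that fit Cdc20 and Ube2c were nearer to 0, at -0.59 and -0.47, and Cenpa was at -2.07.

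Mki67, the usual proliferation marker, measured 40.2 and 46.9 CPM in control but 131 and 38.4 CPM in knockout total libraries (0.96, SE 0.5, adjusted p 0.26), and Top2a 103 and 137 against 240 and 120 CPM (0.59, SE 0.35, adjusted p 0.32). Their high value came from replicate 1 alone. Without it Mki67 was at -0.18 and Top2a at 0.0, and without replicate 2 they were at 1.7 and 1.11.

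For the G1/S set, Ccne2 measured 2.52 and 3.8 CPM in control and 19.7 and 4.69 CPM in knockout total libraries (1.95, SE 0.6, adjusted p 0.15), and Pcna 178 and 228 against 505 and 268 CPM (0.93, SE 0.35, adjusted p 0.17). Cdc6 measured 45.4 and 35.4 against 63.1 and 71.8 CPM (0.74, SE 0.26, adjusted p 0.16), the one of these 3 with close knockout replicates. Without knockout total replicate 1 Ccne2, Pcna and Cdc6 were at 0.57, 0.4 and 0.83, and with the GC trend removed at 0.7, 0.43 and 0.66. Ccne1 (0.56, adjusted p 0.23) and Rrm2 (0.31, adjusted p 0.4) were above 0, and Mcm2 (-0.34, adjusted p 0.47), Mcm5 (-0.06, adjusted p 0.92), Cdt1 (-0.2, adjusted p 0.83) and Ung (-0.61, adjusted p 0.45) below.

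The difference between the sets was -0.44, with -0.69 to -0.29 in the 4 pairings. It was -0.62 without knockout total replicate 1 and -0.35 without replicate 2. Across members this contrast ran against GC content (rho -0.692, and -0.549 over protein-coding genes), and with the GC trend of each library removed the set difference was -0.49, with 2 members and 3.94% of all genes called.

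An interaction term tested whether the granule to total ratio differed between knockout and control cells. Values were below 0 for 36 of 40 members, with medians of -0.92 in the G2/M set and -0.85 in the G1/S set, against 0.09 for all genes. Rrm2 alone was called (-2.48, SE 0.33, adjusted p 0.039), where 0.116% of all genes were called lower, 0.401% higher and 0.517% in all. Rrm2 was 2.2-fold higher in granule than in total RNA of control cells and 2.54-fold lower in knockout cells. Ccne2 (-2.74, SE 0.83, adjusted p 0.11), Ccnb1 (-1.67, SE 0.38, adjusted p 0.086), Pcna (-1.53, SE 0.49, adjusted p 0.12), Plk1 (-1.26, SE 0.4, adjusted p 0.12), Mki67 (-1.27, SE 0.7, adjusted p 0.28) and Top2a (-1.22, SE 0.5, adjusted p 0.18) were low without a call. These values depended on the knockout total pair: without replicate 1 Mki67 was at -0.14, Top2a at -0.65, Ccne2 at -1.37, Pcna at -1.01 and Ccnb1 at -1.42, and without replicate 2 at -2.07, -1.81, -3.59, -2.09 and -2.07. Cdk1 (-0.78, adjusted p 0.22), Cdc20 (-0.56, adjusted p 0.45), Mcm2 (-0.57, adjusted p 0.4) and Mcm5 (-0.67, adjusted p 0.36) were nearer to 0, and Cenpa (1.15, adjusted p 0.28) and Ung (1.04, adjusted p 0.36) lay above it.

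The sets differed by -0.07 in this contrast, and the 16 combinations of pairings ran from -0.65 to 0.26, on both sides of 0. Unadjusted p was under 0.05 for 18 members, and the share of all genes under that limit was not counted. DESeq2 called 16, all lower, beside 14.5% of all genes. With a library left out, calls of members and of all genes rose and fell together, and most such fits did not call Rrm2. Its value stayed between -2.64 and -2.45.

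Lengths and base composition, which did not define the sets, set some members apart. Transcripts had a median of 3409.5 nucleotides in the G2/M set and 3097 in the G1/S set, against 3027 over 15389 protein-coding genes tested, and their GC content was 47.33%, 50.655% and 50.45%. Cenpf (11130 nucleotides), Mki67 (10061) and Cenpe (7910) were the longest members and had the 3 largest granule to total values of control cells. That value was positively related to length in the G2/M set (rho 0.596 over 24 genes), with rho -0.0912 in the G1/S set (16 genes), and over protein-coding genes rho was 0.253. With GC content the relation was negative in both sets (rho -0.711 and -0.815, and -0.42 over protein-coding genes). In knockout cells rho was 0.286 in the G2/M and -0.194 in the G1/S set with length, and -0.243 and 0.365 with GC content, so that the sign with GC content differed between genotypes in the G1/S set. These are descriptions over genes that share the same libraries. The word GGACT, a common form of the m6A motif, occurred at a median of 1.06 per kilobase of transcript in the 40 genes, 1.04 in the G2/M set, 1.25 in the G1/S set and 1.06 in protein-coding genes. No map of m6A was used.

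**Figure D5:**
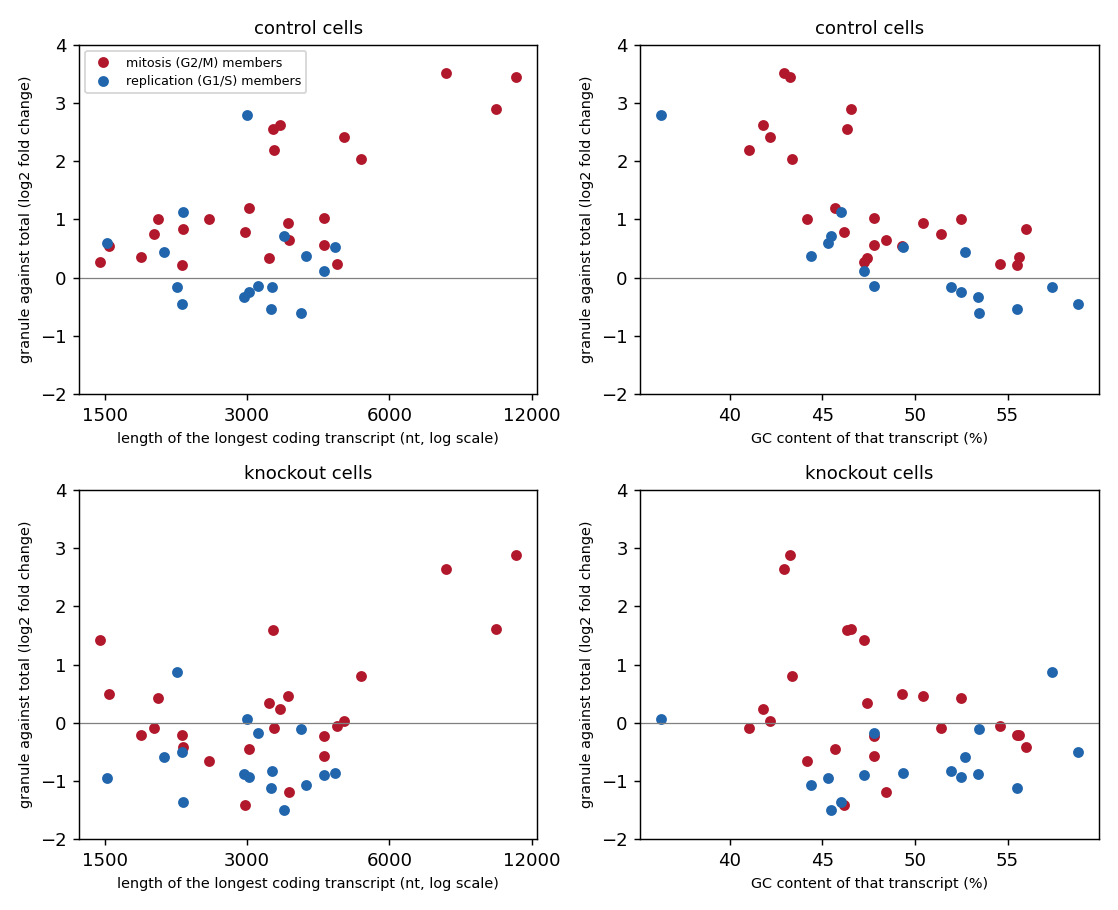
Granule against total log2 fold change of each member against its transcript length and GC content, in control and in knockout cells, by set. In control cells the long G2/M genes Cenpf, Mki67 and Cenpe lie highest and values are lower at higher GC content in both sets, and in knockout cells the GC relation is weak in the G2/M set and positive in the G1/S set.

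Other genes of the same pathways, listed by role, were counted in the same fit. Of 81 other mitosis genes, 35 rose in the granule fraction of control cells and none fell (median 1.1), where 5.89% of all genes rose. In the knockout granule fraction against control 20 fell and none rose (median -0.88), where 3.66% of all genes fell. Kif20b, a kinesin of cytokinesis, measured 9.06 and 8.53 CPM in control total and 108 and 107 CPM in control granule libraries (3.61, SE 0.56, adjusted p 0.013). Kif18a, a motor that limits chromosome oscillation, followed at 3.54 (SE 0.35, adjusted p 0.0046). Lower in the knockout granule fraction were Ect2, the exchange factor that starts furrow ingression, at 137 and 125 against 30.2 and 27.5 CPM (-2.18, SE 0.45, adjusted p 0.028), and Anln, anillin, at 378 and 343 against 84.5 and 81.9 CPM (-2.12, SE 0.39, adjusted p 0.02). Between knockout fractions 5 rose, among them Kif20b (2.21, adjusted p 0.028) and the condensin subunit Smc4 (1.8, adjusted p 0.037), and 4 fell, shares of 81 that lie below the 9.17% and 8.47% of all genes.

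Of 66 other replication and repair genes, 12 rose in control granule RNA (median 0.53), where 5.89% of all genes rose. In the knockout granule fraction against control 8 fell (median -0.46), where 3.66% of all genes fell. Between knockout fractions 8 fell (median -0.38), a share of 66 not far from the 8.47% of all genes. None was called in the opposite direction. The catalytic subunit of primase-polymerase alpha, Pola1, measured 13.0 and 26.5 against 94.1 and 93.6 CPM between control fractions (2.25, SE 0.45, adjusted p 0.025), and the checkpoint mediator Clspn 25 and 27.1 against 99.7 and 89.1 CPM (1.86, SE 0.29, adjusted p 0.012). Dck, deoxycytidine kinase of the nucleotide salvage pathway, measured 78.1 and 74.6 CPM in control and 16.3 and 14.3 CPM in knockout granule libraries (-2.32, SE 0.36, adjusted p 0.012), and it fell between knockout fractions (-1.65, SE 0.35, adjusted p 0.02). Dck and Rrm2, on the salvage and de novo routes to deoxynucleotides, thus both fell in the knockout granule fraction.

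Among 22 transcriptional regulators of the cell cycle, Tfdp1, the partner subunit of E2F factors, measured 188 and 181 CPM in control and 51.4 and 39.3 CPM in knockout granule libraries (-2.02, SE 0.26, adjusted p 0.0074), while its total RNA was 125 and 134 against 127 and 154 CPM. The repressor E2f7 (-1.4, adjusted p 0.044) and the pocket protein Rbl2 (-1.31, adjusted p 0.046) fell there too. These were the 3 of 22 called, where 3.66% of all genes fell. Between knockout fractions 2 fell, Tfdp1 (-1.63, adjusted p 0.0073) and Rbl2 (-1.29, adjusted p 0.034), a share of 22 not far from the 8.47% of all genes. In control cells Lin9, a MuvB subunit (1.76, adjusted p 0.049), E2f8 (1.72, adjusted p 0.041) and E2f6 (1.19, adjusted p 0.034) rose in the granule fraction. They were the 3 of 22 called there, where 5.89% of all genes rose. None of the 3 lists had a call in total RNA or in the interaction, where 0.412% and 0.517% of all genes were called. Unadjusted p in these contrasts was under 0.05 for 20, 22 and 5 and for 33, 43 and 14 genes of the replication, mitosis and regulator lists. The share of all genes under that unadjusted limit was not counted, so whether these numbers are unusual is not known.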

How the data were processed

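Poly(A) RNA of 8 libraries was counted. The deposited values are raw counts per gene, and the submitters' processing notes name STAR, DESeq2 and the GRCm38 (mm10) build, with no versions; the counting program and strand setting are not given in the sources used here. Of 39017 identifiers, 37693 matched GENCODE M21, which supplied names and lengths. Counts were fitted with the quasi-likelihood test of edgeR 4.0.16 in R 4.3.3 (robust, TMM scaling, its expression filter), with 1 mean for each of 4 groups, 4 residual degrees of freedom and Benjamini-Hochberg adjustment over 18952 genes in each of 5 contrasts. A gene is called, or rose or fell, at an adjusted p under 0.05. CPM use TMM library sizes, and log2 CPM add a prior count of 2. The procedure was tested on simulated data. Named members are, per contrast, those called (the 6 highest and 6 lowest if over 12), or those of smallest p where none was, with a standing list of 15 genes and up to 4 called genes of each other list; further members are named for their role, and 1 gene is not reported here. Members and lists were chosen with earlier results of these data known. Alternatives covered scaling, DESeq2 1.42.0, filters, a replicate block, GC trend removal (lowess span 0.3), the groups compared alone and each library left out.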

Additional observations from a re-analysis of the deposited data

Results flagged for a closer look

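For 12 of the 40 members the direction of an effect was opposite in the 2 genotypes or in the 2 fractions, with libraries that did not overlap. The share of all genes that meet this rule was not counted, so whether 12 of 40 is unusual is not known. Libraries without overlap in a given direction and contrast were seen for 24.4% to 40.4% of all genes. Rrm2 was higher in the granule fraction of control cells and lower in that of knockout cells, and higher in knockout total but lower in knockout granule RNA, and the test of the difference passed (log2 -2.48, SE 0.33, edgeR adjusted p 0.039). For the others that test did not pass. Opposite granule to total directions in the genotypes were seen for Ccna2 (-2.2, adjusted p 0.099), Ccnb1 (-1.67, adjusted p 0.086), Plk1 (-1.26, adjusted p 0.12), Kif20a (-1.83, adjusted p 0.086) and Rrm1 (-1.42, adjusted p 0.13). Opposite in both respects, as Rrm2 was, were Mcm4 (-2.21, adjusted p 0.083), Mcm6 (-1.01, adjusted p 0.14), Cdc6 (-1.39, adjusted p 0.099), Pcna (-1.53, adjusted p 0.12) and Ccne1 (-1.03, adjusted p 0.15). Ccne2 (-2.74, SE 0.83, adjusted p 0.11) was higher in knockout total and lower in knockout granule RNA, and its 2 knockout total libraries were at 19.7 and 4.69 CPM. Groups of 2 libraries were too small for a check of single outlying libraries.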

How the results depend on the processing

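Calls of members and of all genes both moved with the processing. The replicate number was also used as a block, although the labels do not say that it pairs the libraries. Calls were then 0 in total RNA (0.0% of all genes) and 0 in the interaction (0.0%). They were 4 for knockout against control in the granule fraction (3.54%), and 5 for granule against total in control (3.07%) and in knockout cells (10.0%). Deviations of same-numbered libraries from their group means correlated at -0.602 to 0.19 over the 6 pairs of groups, across 10261 genes. With the GC trend removed the calls were 2, 21, 15, 19 and 13 in total RNA, knockout granule, control fractions, knockout fractions and interaction. They stood beside 3.94%, 23.6%, 19.8%, 32.7% and 8.14% of all genes. With block and GC removal together they were 17 for knockout fractions (28.2%) and 3 for the interaction (3.27%). DESeq2 called 5 in total RNA, 16 between knockout fractions and 16 in the interaction (13.2%, 26.9% and 14.5% of all genes), and testing without the filter 6, 16 and 17 (11.2%, 17.0% and 11.5%), with 20 in the granule fraction (11.2%). A mean of at least 5 CPM left 7 in the granule fraction (7.86% of all genes), and library size alone 0 in the interaction (0.438%). The groups compared alone gave 34 in the granule fraction (57.3% of all genes), 25 between control fractions (42.4%) and 0 between knockout fractions (0.0%). The cause of these shifts was not tested. Leaving out each library in turn, with a lone library assumed to vary like the others, gave 0 to 28 calls in total RNA, 0 to 32 in the granule fraction, 0 to 27 between control fractions, 0 to 26 between knockout fractions and 0 to 30 in the interaction.

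The G2/M minus G1/S median of control fractions was 0.86 with the GC trend removed and 0.87 with the block as well, and 0.89 to 1.04 with a library left out. Left-out ranges were -0.62 to -0.21 in total RNA, -0.7 to -0.45 in the granule fraction, 0.78 to 1.02 between knockout fractions and -0.36 to 0.11 in the interaction. Upper-quartile scaling moved the median of all genes from -0.06 to -0.29 between control fractions, from 0.08 to 0.23 in the granule fraction and from 0.09 to 0.33 in the interaction. Of 1767 recomputed values for single genes, 1411 stayed on the same side of the threshold, 216 lost a call and 138 gained one. Some of the 1411 changed sign, as Mki67 did in total RNA (0.96, and -0.18 without knockout total replicate 1). The 2 remaining values were counted apart as reversed. Without knockout total replicate 2, Ccne2 between knockout fractions was -0.75 and Cdt1 in the interaction 0.99 (over all left-out libraries -0.75 to 1.44, and -0.71 to 0.99). The lowest level of a member in a library was 2.52 CPM, against 0.0446 CPM for 3 counts in the smallest library.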
